A study of Mus musculus with 24 samples.

Results

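Immature olfactory sensory neurons (iOSNs) carry a set of transcripts for axon growth, and 8 of these were followed here in the main olfactory epithelium (OE) of *WT* and *iRhom2-/-* mice. They were taken by gene symbol, with earlier results of these data known, and are 8 of the 45706 genes in the count table: *Gap43*, *Gng8*, *Tubb3*, *Stmn4*, *Crmp1*, *Dpysl3*, *Dpysl5* and *Stmn2*. iRhom2, encoded by *Rhbdf2*, is a catalytically inactive rhomboid-like membrane protein that the metalloprotease ADAM17 needs to mature. Bulk poly(A)-selected RNA of the dissected OE was sequenced from 12 *WT* and 12 *iRhom2-/-* mice, untreated, on a mixed 129Sv and C57BL/6 background. The *iRhom2-/-* allele is a germline knockout in which a *LacZ* reporter stands under the *iRhom2* promoter, so the knockout was not restricted to neurons, and the targeted allele still expresses exons 1 and 2. At 8 weeks there were 3 *WT* mice (2 males, 1 female) and 3 *iRhom2-/-* mice (3 males). At 10 weeks there were 3 mice of each genotype, with 2 males and 1 female in each. A further set held male mice of 5 and of 30 weeks, 3 per age and genotype, whose 12 libraries could be given to a genotype but not to an age. Each of these 3 sets was its own submission to the sequencing core, so age and submission cannot be told apart between sets.

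OSNs are renewed throughout life from basal stem cells. A newly born neuron sends an axon to a glomerulus of the olfactory bulb, and in this phase it makes growth-cone and microtubule proteins. When it matures it lowers these transcripts and turns on olfactory marker protein (*Omp*) and the odorant transduction machinery. In whole OE, a difference in the number of iOSNs and a difference in RNA per iOSN cannot be told apart.

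Library totals ran from 25333822 to 48660394 estimated counts with a median of 34233812, and 3 counts, taken as the limit of detection, were worth at most 0.113 counts per 1000000 (CPM). *Rhbdf2* averaged 21.7 ± 1.56 CPM (SD, n = 12) in *WT* and 10.4 ± 2.07 CPM (SD, n = 12) in *iRhom2-/-* libraries, and in each set every *iRhom2-/-* library was below every *WT* library; reads over the exons that remain may be part of the latter level. *Bpifb9b*, a secretory gland gene, took 13.6% of the counts of *iRhom2-/-* mouse 2 at 10 weeks, the largest share of a single gene in any library. *Omp* ranged from 3730 to 8380 CPM and *Gap43* from 48.9 to 245 CPM, so both mature and immature neurons were represented in all 24 libraries. All 8 genes passed the filter on low counts in every comparison.

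The 8 genes lie on 7 chromosomes (GRCm38 coordinates, GENCODE gene models). *Gap43*, a growth-cone membrane protein and the usual marker of iOSNs, is at chr16:42248442-42340651 on the minus strand. *Gng8*, a G protein gamma subunit made by immature rather than mature OSNs, is at chr7:16891786-16895436 on the plus strand. *Tubb3*, the neuronal beta-tubulin, is at chr8:123411424-123422015 on the plus strand. The stathmins *Stmn2* and *Stmn4* bind tubulin and regulate microtubule turnover in growing neurites, and lie at chr3:8509360-8561606 and chr14:66344296-66361680, both on the plus strand. The collapsin response mediator proteins *Crmp1* (chr5:37241940-37292133, plus strand), *Dpysl5* (chr5:30711564-30799375, plus strand) and *Dpysl3* (chr18:43320984-43438286, minus strand) act downstream of semaphorins on the growth-cone cytoskeleton. *Crmp1* and *Dpysl5* share chromosome 5 and are not adjacent.

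Per kilobase of exon, *Tubb3* was the most abundant of the 8 genes, at 165 ± 37.5 CPM per kb in *WT* (SD, n = 12). It was followed by *Gap43* at 80.4 ± 28.6, *Stmn4* at 66.1 ± 13.2, *Stmn2* at 40.1 ± 11.0 and *Dpysl3* at 32.3 ± 10.9 CPM per kb. *Dpysl5* (14.2 ± 4.21), *Crmp1* (8.44 ± 1.22) and *Gng8* (7.75 ± 4.07 CPM per kb) were the least abundant. The mean ± SD intervals of *Gap43* and *Stmn4*, of *Stmn2* and *Dpysl3*, and of *Crmp1* and *Gng8* overlapped, and those of the other neighbours in this order did not. On the same scale *Omp* stood at 2620 ± 622 CPM per kb in *WT*, far above every iOSN gene. All CPM values below are per gene, not per kilobase.

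Promoter sequence (RefSeq, GRCm38.p6, 250 bases before to 50 after a start site) was at hand for 4 of the 8 genes, in 5 windows. Members of the early B-cell factor (EBF) family bind a palindrome, TCCC and GGGA with any 2 bases between them, and are long known as activators of olfactory neuron genes, so this motif was searched in both orientations. It was found in 297 of 32851 promoter windows (0.904%) and, among the 5 windows of *Crmp1*, *Gng8*, *Tubb3* and *Dpysl5*, in that of *Dpysl5* alone, 53 bases before the start site. The window (chr5:30711314-30711613, plus strand) is shown because it is the one with a match, and the capitals mark the palindrome.
Dpysl5: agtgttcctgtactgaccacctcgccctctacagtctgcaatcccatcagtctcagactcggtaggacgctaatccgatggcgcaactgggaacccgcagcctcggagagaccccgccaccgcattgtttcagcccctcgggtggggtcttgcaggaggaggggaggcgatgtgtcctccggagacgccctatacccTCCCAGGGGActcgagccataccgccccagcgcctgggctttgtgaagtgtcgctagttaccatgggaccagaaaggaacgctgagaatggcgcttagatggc
The letters CAGATG, an E-box of the NeuroD type, stood in 17.2% of all windows and in 0 of these 5, and TATAAA in 13.6% of all windows and in 0 of these 5. A match describes the letters of the window and is not a measured binding site, and an absent match says only that the letters are not in this window.

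The first question was whether these genes differed between genotypes when all 24 mice were pooled, with the set as a term. *Stmn4* rose in the *iRhom2-/-* OE and was the single gene of the 8 to pass the test. Over all genes tested, 1.29% were higher and 0.835% lower in *iRhom2-/-* at the same threshold, an adjusted p under 0.1. *Stmn4* averaged 126.6 ± 25.3 CPM in *WT* and 178.4 ± 30.8 CPM in *iRhom2-/-* (SD, n = 12 each). All 12 *iRhom2-/-* libraries were above the *WT* mean of their set. The log2 fold change was 0.49 (SE 0.090, 1.40-fold, adjusted p = 0.00512, edgeR). The call was lost when libraries were scaled by their *Omp* counts in place of TMM (0.38, adjusted p = 0.231, edgeR), a scaling that moved the median of all genes to -0.11.

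The other 7 genes had positive log2 fold changes over all mice that did not pass the test. An unadjusted p under 0.05 was reached by 2 of the 8, *Stmn4* and *Crmp1*, and on the higher side by 6.64% of all genes. The nearest was *Crmp1*, at 0.22 (SE 0.080, adjusted p = 0.21, edgeR), with 9 of 12 *iRhom2-/-* libraries above the *WT* mean of their set. *Gap43* had a log2 fold change of 0.26 with a wide interval from -0.24 to 0.75. *Dpysl5* had 0.18, *Tubb3* 0.15, *Dpysl3* 0.11, *Stmn2* 0.07 and *Gng8* 0.02, and the interval of each included 0. The median over the 8 genes was 0.16 and that of all 20131 genes tested was 0.0017, where 50.5% of all genes had a positive value. A positive tilt was not particular to the 8. Of 17 mature OSN markers, *Omp* among them, 14 were positive (82.4%, median 0.10). Of these 0 were called by edgeR, and at an unadjusted p under 0.05 there were 1 higher and 1 lower. *Omp* itself had a log2 fold change of 0.12 (SE 0.11, adjusted p = 0.744, edgeR).

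**Figure D1:**
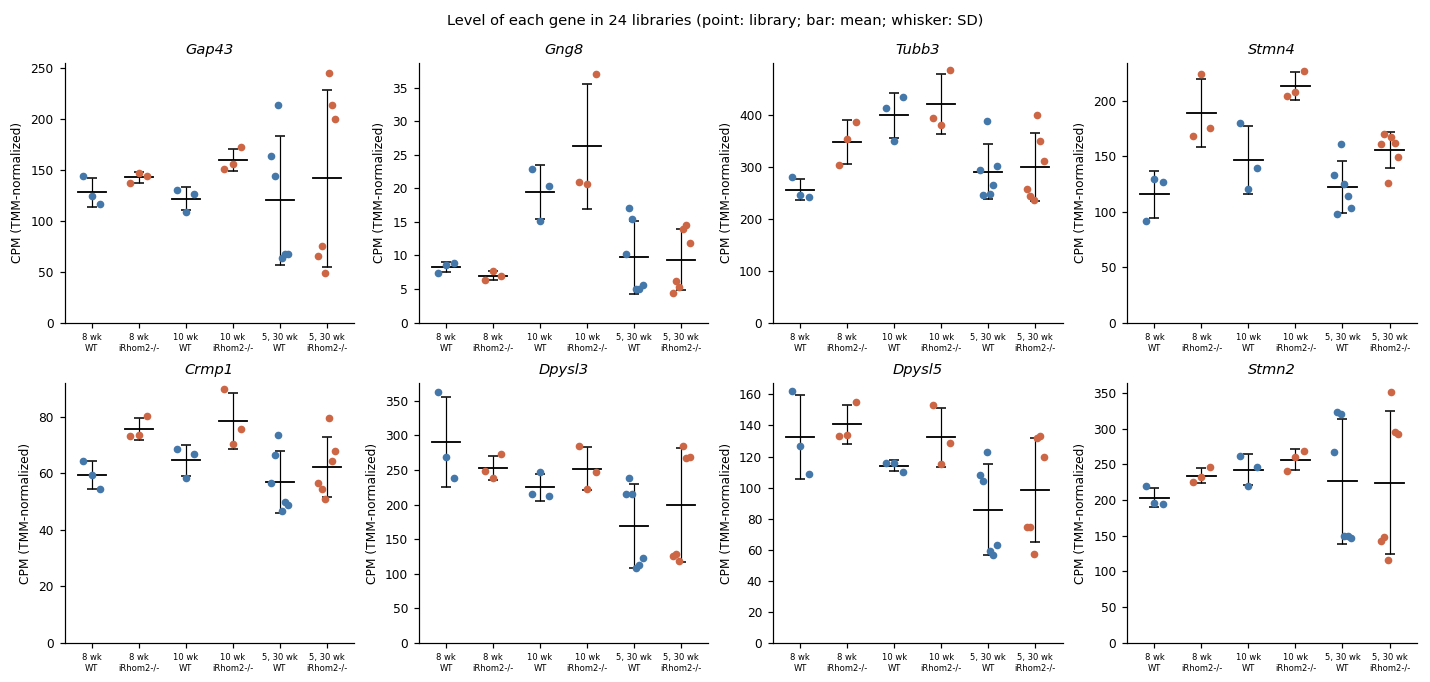
Level of each of the 8 genes in TMM-normalized CPM (vertical axis) in the 24 libraries, by set and genotype (blue *WT*, orange *iRhom2-/-*). Each point is a library, the bar the mean and the whisker the SD. *Stmn4* averaged 178.4 CPM in *iRhom2-/-* and 126.6 CPM in *WT*, and most other genes spread widely in the set of 5 and 30 weeks.

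Taken set by set, *Stmn4* held the same direction each time. At 8 weeks it measured 91.4, 129 and 127 CPM in the 3 *WT* mice and 168, 224 and 175 CPM in the 3 *iRhom2-/-* mice. At 10 weeks it measured 180, 120 and 139 CPM in *WT* and 204, 208 and 227 CPM in *iRhom2-/-*. In both of these sets the genotypes did not overlap. In the set of 5 and 30 weeks the 6 *WT* libraries ran from 97.6 to 161 CPM with a median of 120, and the 6 *iRhom2-/-* libraries from 126 to 170 CPM with a median of 162. There the ranges overlapped, and all 6 *iRhom2-/-* libraries were above the *WT* mean of 122 CPM. Ordered by mean, the 6 groups ran from *iRhom2-/-* at 10 weeks (213 ± 12.4 CPM) through *iRhom2-/-* at 8 weeks (189 ± 30.7) and at 5 or 30 weeks (156 ± 16.3) to *WT* at 10 weeks (146 ± 30.5), at 5 or 30 weeks (122 ± 23.0) and at 8 weeks (116 ± 21.1). Each neighbouring pair in that order had overlapping ranges.

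The 3 sets gave *Stmn4* log2 fold changes of 0.71 (SE 0.16) at 8 weeks, 0.54 (SE 0.15) at 10 weeks and 0.35 (SE 0.12) at 5 or 30 weeks. Only the first passed the test within its own set (edgeR adjusted p = 0.0767, 0.437 and 0.224), and the difference between sets did not pass (interaction adjusted p = 0.584, edgeR). Of the 8 genes 0 passed that interaction test, with edgeR or with DESeq2, while edgeR called 0.0482% of all genes and DESeq2 called 495 genes. An unadjusted p under 0.05 (edgeR) was reached by 0 of the 8 and by 12.7% of all genes. The 8 interaction p-values adjusted over all genes ran from 0.565 to 0.984.

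At 8 weeks, 3 of the 8 genes rose in *iRhom2-/-* mice and none fell, against 3.24% and 1.74% of all genes tested, and with libraries scaled by *Omp* counts *Tubb3* and *Crmp1* turned to -0.21 and -0.29, beside a median of all genes of -0.62. Besides *Stmn4* these were *Tubb3* and *Crmp1*. *Tubb3* measured 280, 246 and 242 CPM in *WT* and 303, 354 and 387 CPM in *iRhom2-/-* mice (log2 fold change 0.44, SE 0.11, adjusted p = 0.095, edgeR). *Crmp1* measured 64.5, 59.4 and 54.4 CPM in *WT* and 73.1, 73.7 and 80.3 CPM in *iRhom2-/-* mice (log2 fold change 0.35, SE 0.077, adjusted p = 0.0765, edgeR). In these genes every *iRhom2-/-* mouse was above every *WT* mouse. *Stmn2* also separated, with 219, 196 and 195 CPM in *WT* and 225, 232 and 246 CPM in *iRhom2-/-*, and did not pass the test (log2 fold change 0.20, adjusted p = 0.202, edgeR). All *iRhom2-/-* above all *WT* libraries was seen in 14.6% of all genes at 8 weeks. An unadjusted p under 0.05 was reached by the same 4 genes, against 10.8% of all genes on the higher side.

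The other 4 genes did not pass at 8 weeks, and 2 of them had negative values. *Gap43* measured 144, 124 and 116 CPM in *WT* and 137, 147 and 144 CPM in *iRhom2-/-*. *Dpysl5* had a log2 fold change of 0.08, with an interval from -0.26 to 0.42. *Gng8* measured 7.44, 8.51 and 8.87 CPM in *WT* and 6.37, 7.68 and 6.98 CPM in *iRhom2-/-* (log2 fold change -0.24, interval -0.56 to 0.08). *Dpysl3* measured 363, 269 and 239 CPM in *WT* and 248, 238 and 273 CPM in *iRhom2-/-* (log2 fold change -0.20, interval -0.57 to 0.17). The 3 calls were close to the threshold and depended on single mice. Each was lost in 4 of the 6 fits that left out 1 mouse, namely without *WT* mouse 2, *WT* mouse 3, *iRhom2-/-* mouse 2 or *iRhom2-/-* mouse 3. The adjusted p in those fits reached 0.257 for *Stmn4*, 0.314 for *Tubb3* and 0.265 for *Crmp1* (edgeR), while their log2 fold changes were at least 0.56, 0.35 and 0.29.

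At 8 weeks *Omp* and other markers of mature OSNs also had higher values in *iRhom2-/-* libraries. *Omp* measured 3730, 4470 and 4800 CPM in *WT* and 5670, 6780 and 7610 CPM in *iRhom2-/-* (log2 fold change 0.63, adjusted p = 0.112, edgeR), with no overlap. Of 17 mature OSN markers, 15 had positive values and 5 were called higher, among them the cyclic nucleotide-gated channel subunits *Cnga2* and *Cnga4*, with a median of 0.49 where the median of all genes was -0.0013. Their summed level ran from 12700 to 15700 CPM in *WT* and from 18400 to 22900 CPM in *iRhom2-/-*. Of 13 globose basal and precursor markers 3 had positive values, 0 were called by edgeR and 1 had an unadjusted p under 0.05. The 12 immune markers were all lower in value, with a summed level of 435 to 683 CPM in *WT* and 243 to 380 CPM in *iRhom2-/-*; 0 were called by edgeR and 3 had an unadjusted p under 0.05. The markers of other neurons were positive in all 9 tested (median 0.64, summed level at most 228 CPM in *WT* and at least 240 CPM in *iRhom2-/-*), with 0 called by edgeR and 2 at an unadjusted p under 0.05. The 5 blood markers were all negative (median -0.49), with 0 called by edgeR and 1 at an unadjusted p under 0.05. Of all 19335 genes tested at 8 weeks, 2083 higher and 1744 lower genes had an unadjusted p under 0.05. The part of the marker shifts in the values of *Stmn4*, *Tubb3* and *Crmp1* was not tested.

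At 10 weeks none of the 8 genes passed the test, which called 0.0853% of all genes higher and 0.112% lower. Unadjusted p-values under 0.05 were reached by 3 of the 8 (*Stmn4*, *Gap43* and *Crmp1*) and by 3.97% of all genes on the higher side, and DESeq2 called *Stmn4* and *Gap43*. *Gap43* measured 130, 109 and 126 CPM in *WT* and 151, 156 and 172 CPM in *iRhom2-/-* (log2 fold change 0.39, SE 0.11, adjusted p = 0.437, edgeR). *Crmp1* measured 68.5, 58.3 and 66.8 CPM in *WT* and 89.7, 70.4 and 75.7 CPM in *iRhom2-/-*. For *Stmn4*, *Gap43* and *Crmp1* all *iRhom2-/-* libraries were above all *WT* libraries, as in 6.77% of all genes. All 8 log2 fold changes were positive, with a median of 0.25 beside 0.0068 for all genes, of which 51.4% were positive.

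*Gng8* at 10 weeks measured 22.9, 15.1 and 20.4 CPM in *WT* and 21.0, 20.7 and 37.0 CPM in *iRhom2-/-*, so its log2 fold change of 0.43 rested on *iRhom2-/-* mouse 3 and was 0.09 at the lowest with 1 mouse left out. *Tubb3* (0.08), *Stmn2* (0.08), *Dpysl3* (0.16) and *Dpysl5* (0.22) had overlapping genotypes. *Omp* was lower in value here (log2 fold change -0.13, adjusted p = 0.932, edgeR), and 1 of 17 mature OSN markers had a positive value, with a median of -0.16. Globose basal and precursor markers were positive in 12 of 13 cases with a median of 0.25, 0 called by edgeR and 4 at an unadjusted p under 0.05. The 10 ensheathing glia markers were all lower in value, with a median of -0.50, 0 called by edgeR and 4 at an unadjusted p under 0.05. Of 10 markers of other neurons 2 were positive (median -0.38), with 0 called by edgeR and, at an unadjusted p under 0.05, 1 higher and 4 lower. The 5 blood markers were all positive (median 1.2), with 0 called by edgeR and 0 at an unadjusted p under 0.05. Their summed level was 633 to 1560 CPM in *WT* and 518, 735 and 6200 CPM in *iRhom2-/-*, so 1 *iRhom2-/-* library was far above the rest. Of all 18764 genes tested at 10 weeks, 744 higher and 717 lower genes had an unadjusted p under 0.05. The part of the marker lists in the values of the 8 genes was not tested.

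**Figure D2:**
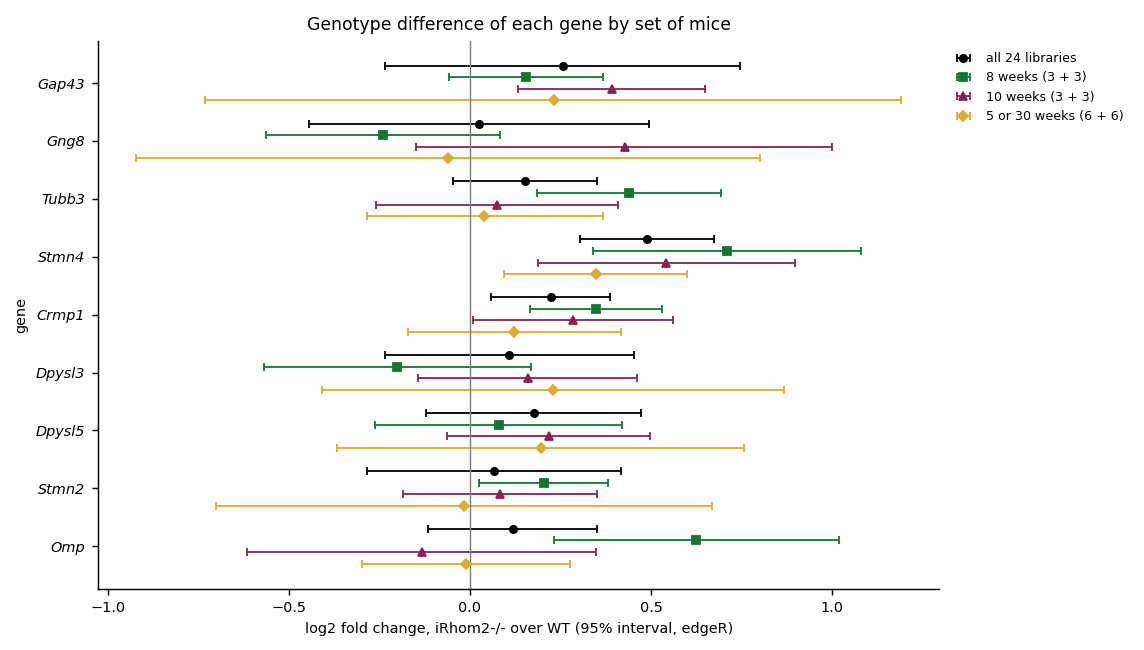
Log2 fold change of *iRhom2-/-* over *WT* (horizontal axis, with 95% intervals from edgeR) for the 8 genes and *Omp* (vertical axis), from all 24 libraries and from each set alone. *Stmn4* is to the right of 0 in every set (0.71, 0.54 and 0.35), and *Gng8* and *Dpysl3* change side between 8 and 10 weeks.

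The set of 5 and 30 weeks gave 0 called genes among the 8 with edgeR, where 0.649% of all genes were higher and 0.422% lower. There 1 gene, *Stmn4*, had an unadjusted p under 0.05, against 7.35% of all genes on the higher side, and DESeq2 called it. Positive values were found in 6 of the 8 genes and 49.7% of all genes, and in 0 of the 8 were all *iRhom2-/-* above all *WT* libraries, against 1.11% of all genes. The spread within each genotype was wide and had a regular form. *Gap43* measured 164, 144 and 214 CPM in *WT* libraries 7 to 9 and 63.1, 67.5 and 67.6 CPM in *WT* libraries 10 to 12. In *iRhom2-/-* it measured 65.6, 75.6 and 48.9 CPM in libraries 7 to 9 and 245, 214 and 200 CPM in libraries 10 to 12. In each genotype there were thus 3 libraries at 144 CPM or more and 3 at 75.6 CPM or less, with none between.

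*Stmn2*, *Dpysl3*, *Dpysl5*, *Gng8* and, by a smaller step, *Crmp1* divided the same libraries. *Stmn2* measured 268 to 323 CPM in *WT* libraries 7 to 9 and 147 to 149 CPM in libraries 10 to 12, and 292 to 352 CPM in *iRhom2-/-* libraries 10 to 12 and 116 to 148 CPM in libraries 7 to 9. *Dpysl3* measured 215 to 239 CPM and 108 to 123 CPM in the same *WT* libraries, and 268 to 285 CPM and 118 to 128 CPM in the *iRhom2-/-* libraries. *Gng8* ran from 10.2 to 17.1 CPM in the upper 3 *WT* libraries and from 4.95 to 5.58 CPM in the lower 3. *Tubb3* did not divide them in *WT*, where libraries 7 and 8 measured 293 and 246 CPM and library 12 measured 302 CPM. *Stmn4* did not divide the libraries of either genotype. In *WT* it measured 133, 97.6 and 161 CPM in libraries 7 to 9 and 125, 114 and 103 CPM in 10 to 12. In *iRhom2-/-* it measured 161, 170 and 126 CPM in 7 to 9 and 167, 162 and 149 CPM in 10 to 12. The column names give a genotype and a number but no age, so these libraries were not split by age and no age difference was computed. The labels place 3 mice of each age in each genotype, so the genotypes were balanced for age in this comparison.

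**Figure D3:**
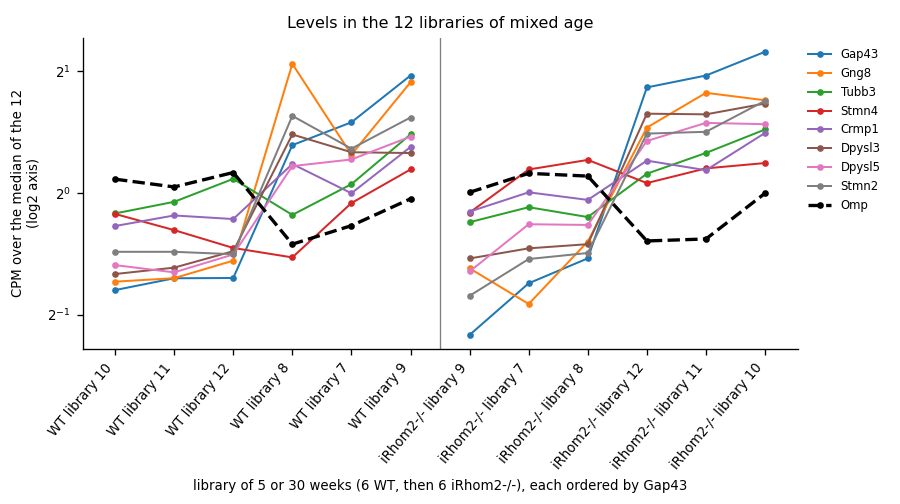
Level of the 8 genes and *Omp* in the 12 libraries of 5 or 30 weeks, as CPM over the median of the 12 (vertical axis, log2 scale), with libraries of each genotype in order of *Gap43* (horizontal axis). *Gap43* steps from 67.6 to 144 CPM in *WT* and from 75.6 to 200 CPM in *iRhom2-/-*. *Stmn4* shows no such step in either genotype, and *Omp* runs flat or the other way.

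The next comparison set the iOSN genes against mature neurons: each gene was divided by *Omp* in the same library, a ratio that does not depend on how libraries are scaled. Over all mice the ratio of *Stmn4* to *Omp* was 23.0 ± 4.24 counts per 1000 *Omp* counts in *WT* and 30.0 ± 5.35 in *iRhom2-/-* (SD, n = 12 each). The log2 difference was 0.38 (SE 0.11, 1.30-fold), 10 of 12 *iRhom2-/-* libraries were above the *WT* mean of their set, and the two-sided exact permutation test within sets gave p = 0.00331. The other 7 ratios had log2 differences from -0.09 to 0.11 and exact p-values from 0.479 to 0.941, unadjusted. With 8 ratios tested on the same *Omp* counts, that of *Stmn4* alone was under 0.05. It was computed from the same libraries as the fold change above and shares its *Stmn4* counts.

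Within sets the ratios of most genes pointed in different directions at 8 and 10 weeks. At 8 weeks 7 of the 8 were lower in value in *iRhom2-/-* mice, *Stmn4* being the exception (log2 difference 0.09). *Omp* itself had a log2 fold change of 0.63 there, beside a median of -0.0013 for all genes. Most genes were thus lower in value relative to *Omp*, and the ratios were not counted over all genes. *Gng8* measured 1.99, 1.91 and 1.85 counts per 1000 *Omp* counts in *WT* and 1.12, 1.13 and 0.917 in *iRhom2-/-*, a log2 difference of -0.86. *Dpysl3* measured 97.2, 60.1 and 49.8 in *WT* and 43.8, 35.1 and 35.9 in *iRhom2-/-*, and *Stmn2* 58.6, 43.9 and 40.6 in *WT* and 39.8, 34.2 and 32.3 in *iRhom2-/-*. In these 3 genes all *iRhom2-/-* ratios were below all *WT* ratios, which gave an exact p of 0.1, the smallest that 3 against 3 mice allow.

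At 10 weeks all 8 ratios were higher in value in *iRhom2-/-* mice. There *Omp* had a log2 fold change of -0.13 beside a median of 0.0068 for all genes, so most genes were higher in value relative to *Omp*. *Gng8* measured 2.74, 2.77 and 2.81 in *WT* and 3.56, 3.82 and 4.66 in *iRhom2-/-*, a log2 difference of 0.52. *Gap43* measured 15.6, 19.9 and 17.3 in *WT* and 25.6, 28.8 and 21.7 in *iRhom2-/-*, and *Stmn4* 21.5, 22.0 and 19.1 in *WT* and 34.5, 38.4 and 28.6 in *iRhom2-/-*. In these 3 genes all *iRhom2-/-* ratios were above all *WT* ratios, again at an exact p of 0.1, the smallest possible. In the set of 5 and 30 weeks the *Stmn4* ratio had a log2 difference of 0.38 (exact p = 0.0649), and the other 7 had exact p-values from 0.565 to 0.994.

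**Figure D4:**
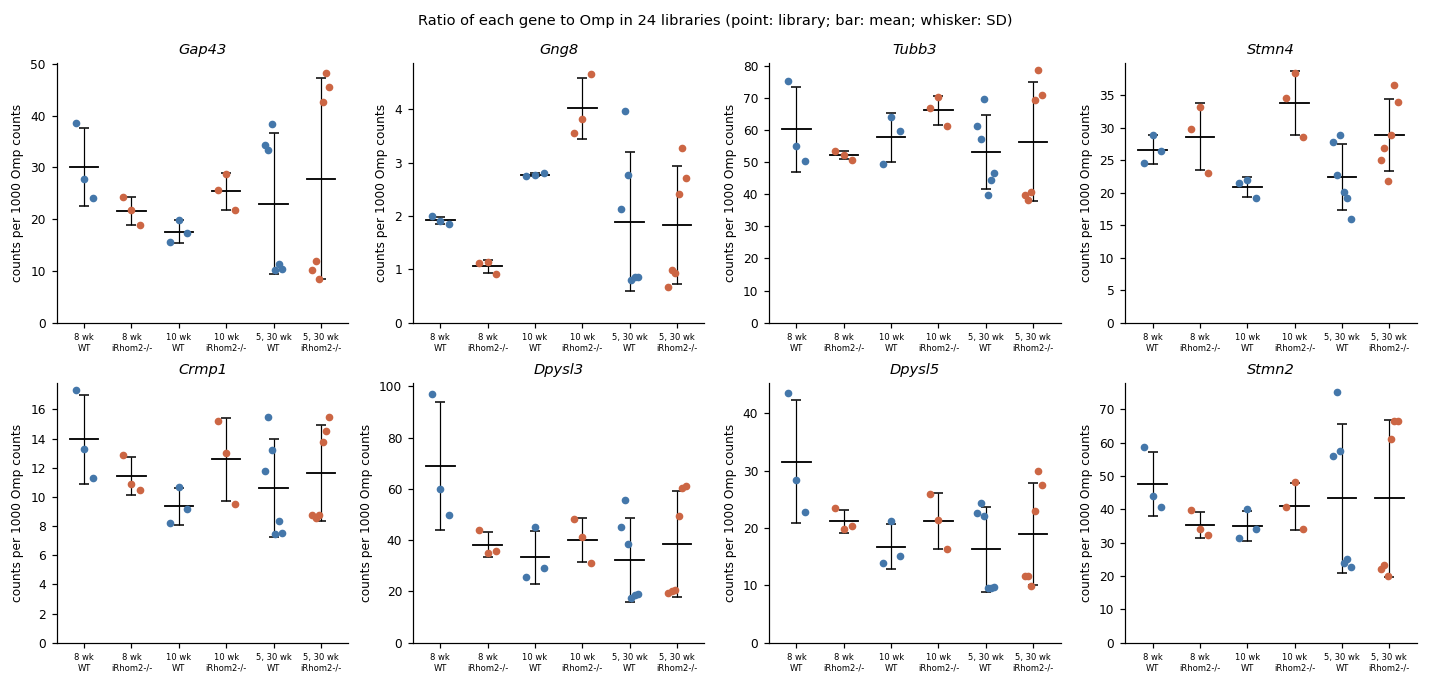
Counts of each gene per 1000 *Omp* counts (vertical axis) in the 24 libraries, by set and genotype (blue *WT*, orange *iRhom2-/-*), with each library as a point, the mean as a bar and the SD as a whisker. *Gng8* is below *WT* in all 3 *iRhom2-/-* mice of 8 weeks (0.917 to 1.13) and above *WT* in all 3 of 10 weeks (3.56 to 4.66).

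The difference between the genotype effects at 8 and 10 weeks was tested for each ratio by exact permutation within sets, a test added after the values were seen. Its p-values are unadjusted, and that of *Gng8* was fixed by full separation in opposite directions at 8 and 10 weeks. The difference was 1.39 on the log2 scale for *Gng8* (exact p = 0.005, the smallest that 400 arrangements give), 0.99 for *Gap43* (exact p = 0.01) and 0.63 for *Stmn2* (exact p = 0.02). *Dpysl3* gave 1.09 and *Dpysl5* 0.86, both at an exact p of 0.04. *Crmp1* (0.68, exact p = 0.05), *Tubb3* (0.39, exact p = 0.075) and *Stmn4* (0.60, exact p = 0.105) did not go under 0.05. The genotype difference of *Omp* as a share of the library total changed by -0.84 from 8 to 10 weeks (exact p = 0.05). All 8 ratios carry that share in their denominator. At 8 weeks *Omp* had a log2 fold change of 0.63 beside a median of -0.0013 for all genes, and at 10 weeks -0.13 beside 0.0068. For a gene at the median of both sets, the genotype difference relative to *Omp* was thus also higher at 10 weeks. The differences between 8 and 10 weeks were not counted over all genes. The part of *Omp* in them was not tested beyond these values, and age and submission cannot be told apart.

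A wider list of 26 genes of axon growth and the neuronal cytoskeleton was read beside the 8. Over all mice 21 of the 26 had positive log2 fold changes, with a median of 0.10, and 0 were called by edgeR, while 4 had an unadjusted p under 0.05 and a positive value. The smallest p-values belonged to the neural cell adhesion molecule *Ncam1* (0.23, SE 0.071, adjusted p = 0.121, edgeR) and the reticulon *Rtn1* (0.15, adjusted p = 0.268, edgeR). On the lower side they belonged to the tubulin gene *Tuba1b* (-0.07) and the actin-severing *Cfl1* (-0.02). At 8 weeks 3 of the 26 rose: *Dpysl2*, a further collapsin response mediator (0.55, adjusted p = 0.0456, edgeR), *Fez1*, a kinesin adaptor (0.78, adjusted p = 0.0726, edgeR), and *Rtn1* (0.46, adjusted p = 0.0426, edgeR). At 10 weeks 0 of 26 were called, and 3 had an unadjusted p under 0.05, 2 of them with a positive value. At 5 or 30 weeks *Ncam1* alone was called (0.31, adjusted p = 0.091, edgeR).

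Of 18 other iOSN genes, which encode mostly transcription factors and guidance receptors, 2 rose over all mice and none fell. *Trib3*, a pseudokinase of the stress response, had a log2 fold change of 0.65 (SE 0.11, adjusted p = 0.00192, edgeR), and *Ebf3*, of the EBF family, 0.26 (SE 0.051, adjusted p = 0.00954, edgeR), each with 12 of 12 *iRhom2-/-* libraries above the *WT* mean of their set. At 8 weeks *Lhx2* rose (0.32) and *Tex15* fell by 0.71 on the log2 scale. The list had 12 of 18 positive values over all mice, with a median of 0.07.

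Over the 24 libraries, with the mean of each set and genotype removed, the 28 pairs of the 8 genes had a median correlation of 0.80 (range 0.037 to 0.981). The median was 0.90 in the 12 libraries of 5 and 30 weeks and 0.37 (range -0.68 to 0.95) in the 12 libraries of 8 and 10 weeks. The 5 genes outside the 8 that were most like their mean were *Tubb2b* (r = 0.976), *Evl* (0.975), *Stmn1* (0.971), *Nhlh1* (0.970) and *Sox11* (0.969), and in the 12 libraries of 8 and 10 weeks the same genes gave 0.724, 0.943, 0.759, 0.609 and 0.693. For *Gap43* alone they were *Nhlh1* (0.986), *Tubb2b* (0.982), *Stmn1* (0.981), *Hmgb3* (0.981) and *Mpzl1* (0.976). At 8 and 10 weeks these gave 0.633, 0.905, 0.806, 0.881 and 0.816. In the 5 and 30 week libraries *Gap43* had a correlation of -0.69 with *Omp* and *Dpysl3* one of -0.80, where *Stmn4* had 0.11. In the libraries of 8 and 10 weeks *Gap43* had 0.38 with *Omp*, of the other sign, *Dpysl3* -0.36 and *Stmn4* 0.70. These are descriptions over libraries that share preparation and set, with no test.

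Genes near each of the 8 were also read, since the knockout mice were on a mixed background. Within 1 Mb of *Stmn4*, 23 genes were tested and 0 were called by edgeR in the 24 libraries, their log2 fold changes having a median of 0.036, and 4 had an unadjusted p under 0.05. The smallest p there was that of *Trim35* (0.13, adjusted p = 0.193, edgeR). Near *Tubb3*, 3 of 53 genes were called higher (*Cbfa2t3*, *Acsf3* and *Cdh15*, at 0.28, 0.17 and 0.33), and these were named after their values were seen. There 12 of the 53 had an unadjusted p under 0.05. Of all 20131 genes tested, 1.29% were called higher, and 1337 higher and 1184 lower genes had an unadjusted p under 0.05. Near the other 6 genes 0 neighbours were called by edgeR, and 1 to 4 around each had an unadjusted p under 0.05.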

How the data were processed

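Bulk RNA-seq of the OE was analysed in 24 libraries, 1 per mouse. The authors aligned reads to GRCm38 with STAR through nf-core and deposited gene-level RSEM estimated counts in 1 table for the series. The deposited expected counts were whole numbers, and RSEM shares out reads that fit several genes, which could move counts between tubulin paralogs. The authors' own fold changes and p-values in that table were not used. Rows without a gene symbol (3926, with 1.11% of counts) were kept as genes. Libraries of the first 12 mice carry numbers that tie them to an age. The other 12 are tied by name to a genotype, and by elimination to the mice of 5 and 30 weeks. Their ages were left unassigned.

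Counts were filtered with filterByExpr, TMM-scaled and tested with edgeR 4.0.16 (quasi-likelihood, limma 3.58.1, R 4.3.3). A gene was called at a Benjamini-Hochberg adjusted p under 0.1 over all genes tested. The 24 libraries were fitted with the set as a term, each set also had a fit of its own, and whether the genotype effect differed between sets was tested as an interaction. CPM values are TMM-scaled, fold changes are *iRhom2-/-* over *WT*, and intervals are 95%. Ratios are counts per 1000 *Omp* counts, tested two-sided by exact permutation within sets. Correlations used log2(CPM + 0.5). The floor of 3 counts covers counting error only. Since each library is a separate mouse, p-values measure the spread between mice.

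On simulated counts with 200 genes changed 2-fold, edgeR found 158 over all mice, 113 at 8 weeks, 98 at 10 weeks and 150 at 5 or 30 weeks. The 42 pairs of libraries within groups differed by more than sampling noise, their smallest chi-square being 12.8 for each degree of freedom. Alternatives were DESeq2 1.42.0, other scalings and filters, a likelihood ratio test, male mice only, a replicate block and each library left out in turn.

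The 8 genes and the marker lists were chosen with earlier results of these data known. Besides the 8 genes, *Omp* and *Rhbdf2*, the text names from each list the genes with the smallest p over all mice in each direction, at most 2 each, the called list genes, and the 5 genes most correlated with the mean of the 8 and with *Gap43*. Of the other marker lists, over all mice edgeR called 0 of 8 horizontal basal (3 at an unadjusted p under 0.05), 0 of 14 globose basal and precursor (0), 0 of 10 sustentacular (0), 0 of 10 ensheathing glia (1), 0 of 10 other neuron (0), 0 of 8 respiratory ciliated (0), 0 of 12 immune (6) and 0 of 5 blood markers (0). Of all 20131 genes tested over all mice, 1337 higher and 1184 lower genes had an unadjusted p under 0.05.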

Additional observations from a re-analysis of the deposited data

Results flagged for a closer look

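*Gng8*, divided by *Omp*, had genotype differences of opposite sign in 2 sets of mice. The log2 difference of *iRhom2-/-* from *WT* was -0.863 at 8 weeks, where all 3 *iRhom2-/-* mice were below all 3 *WT* mice, and 0.524 at 10 weeks, where all 3 were above. Neither difference passed on its own, the exact permutation p of 0.1 in each set being the smallest that 3 against 3 mice give. In CPM, *Gng8* did not pass at 8 weeks (-0.24, adjusted p = 0.376, edgeR) or at 10 weeks (0.43, adjusted p = 0.768, edgeR). The difference between the sets was tested after these values were seen, and the exact permutation p of 0.005 was the smallest that 400 arrangements give. *Gng8* was the lowest of the 8 genes, at 6.37 to 8.87 CPM at 8 weeks and 15.1 to 37.0 CPM at 10 weeks. The genotype difference of *Omp* as a share of the library total changed by -0.84 on the log2 scale from 8 to 10 weeks (exact permutation p = 0.05). The ratio of every gene to *Omp* carries that share, and the difference between the sets was not counted over all genes. Age and submission cannot be told apart in this difference. Libraries standing apart were looked for only in the 8 genes, *Omp* and *Rhbdf2*, and only among the mice of 5 or 30 weeks, where groups hold 6 libraries. None was found there. The rule flags a single library far from the rest, which it can hardly do where a gene divides the 6 into 3 and 3, as *Gap43* did. The groups of 3 mice at 8 and 10 weeks were too small for that rule, and the 10-week library with 6200 CPM of blood markers is among them.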

How the results depend on the processing

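Over all mice 1 of the 8 genes was called. The count was 0 with libraries scaled by *Omp* counts, 2 with the mice of 8 and 10 weeks only (*Stmn4* and *Crmp1*), and 1 to 2 with 1 library left out, *Crmp1* (adjusted p = 0.0681, edgeR) being called without *WT* library 9. *Stmn4* had a log2 fold change of 0.446 to 0.54 with 1 library left out (adjusted p from 0.000925 to 0.0185, edgeR) and of 0.38 to 0.63 under the other settings. At 8 weeks the count of 3 became 0 at an adjusted p under 0.05, 0 with male mice only, 1 when the contrast was taken from 1 fit of 24 libraries, and 5 with *Omp* scaling, and it was 0 to 3 with 1 mouse left out. Under *Omp* scaling, which moved the median of all genes by -0.62 at 8 weeks and by 0.13 at 10 weeks, the 5 were called lower: *Gng8* (-0.86), *Dpysl3* (-0.85), *Dpysl5* (-0.574), *Gap43* (-0.483) and *Stmn2* (-0.43). At 8 weeks the call of *Tubb3* held under 3 of 10 other settings, that of *Stmn4* under 7 and that of *Crmp1* under 6. With *Omp* scaling *Crmp1* (-0.287) and *Tubb3* (-0.207) also turned negative without a call. At 10 weeks the count of 0 became 2 with DESeq2, and at 5 or 30 weeks it became 1; with 1 library left out it was 0 in both sets. The interaction called 0 of the 8 in every fit, and from 0 to 495 of all genes. For the ratios to *Omp*, 1 of 8 was under 0.05, 3 with *Gng13* as denominator (*Stmn4*, *Crmp1* and *Tubb3*) and 1 with any library left out. *Gng13* itself had a log2 fold change of -0.33 over all mice (SE 0.135, adjusted p = 0.285, edgeR), which all 8 ratios to it carry. The cause of these changes was not tested. The number of all genes called also moved: over all mice from 260 higher and 168 lower to 459 and 365 with DESeq2, at 8 weeks from 626 and 336 to 1172 and 1023 with DESeq2 and to 91 and 13171 with *Omp* scaling, at 10 weeks from 16 and 21 to 140 and 149 with DESeq2, and at 5 or 30 weeks from 120 and 78 to 532 and 384.

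Replicate numbers at 8 and 10 weeks are shared between genotypes, and same-numbered mice had correlations of their deviations from -0.00186 to 0.27, so the numbers were not taken to pair mice. Of 12 libraries 7 correlated best with the library of their own number. With the number as a replicate block, 1 of the 8 genes was called over all mice, 2 at 8 weeks (*Stmn4* and *Crmp1*) and 0 at 10 weeks. The ratio to *Omp* in 6 pairs gave 0 of 8 under 0.05, with *Stmn4* at 0.39 (exact p = 0.0938). The block was not run at 5 or 30 weeks, where libraries carry no mouse number.

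Depth was ample for all 8 genes. The number of mice was not the only limit on precision. For *Gap43* the SE was 0.446 in the 12 libraries of 5 or 30 weeks and 0.091 in the 6 of 8 weeks. Of the 8 genes only *Stmn4* had a smaller SE in the set of mixed age (0.117, beside 0.158 at 8 weeks). The part of the mixed ages in these SEs was not tested.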

Other observations

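Marker lists that were not part of the comparisons moved differently at 8 and 10 weeks. The 10 ensheathing glia markers, of the cells that wrap olfactory axons, had 9 positive log2 fold changes at 8 weeks with a median of 0.34, and 0 positive at 10 weeks with a median of -0.50. Their summed level was 387 to 439 CPM in *WT* and 505 to 511 CPM in *iRhom2-/-* at 8 weeks, and 557 to 677 CPM and 437 to 535 CPM at 10 weeks. The respiratory ciliated markers had 4 of 8 positive values at 8 weeks and 8 of 8 at 10 weeks, with a median of 0.32 and 0 called by edgeR, 1 at an unadjusted p under 0.05. The difference between the 2 sets was not tested for these lists.

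*Trib3* had its largest value at 10 weeks, with a log2 fold change of 1.17 (adjusted p = 0.0636, edgeR), beside 0.34 at 8 weeks (adjusted p = 0.225, edgeR) and 0.54 at 5 or 30 weeks (adjusted p = 0.104, edgeR). The interaction with set did not pass (adjusted p = 0.282, edgeR). *Ebf3* had values of 0.27, 0.21 and 0.27 at 8, 10 and 5 or 30 weeks. In the set of 5 and 30 weeks, *Ncam1*, *Map1b* and *L1cam*, which encode axonal adhesion and microtubule proteins, had log2 fold changes of 0.31, 0.30 and 0.26 with all 6 *iRhom2-/-* libraries above all 6 *WT* libraries, as in 1.11% of all genes there, and *Ncam1* alone was called. *Map1b* and *L1cam* were named after their values were seen.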
